A study of Mus musculus with 2 samples.

Results

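The macrophages described here carry C1q RNA and almost no Spp1 or Arg1 RNA, and they were gated from 2 single-cell libraries of CD45+ cells sorted from mouse liver tumours. A barcode was a member only with 500 or more UMIs (unique molecular identifiers, each marking 1 captured RNA molecule), 250 or more genes and no more than 10% of UMIs from mitochondrial genes. It also had to hold at least 5 UMIs over C1qa, C1qb and C1qc, at most 1 UMI over Spp1 and Arg1, and at most 1 of the 5 Kupffer-cell genes Clec4f, Vsig4, Timd4, Cd5l and Marco. No Cd3d, Cd3e or Cd3g UMI was allowed, and Alb, Apoa1, Apoa2 and Ttr together had to stay below 5% of UMIs. The gate held 1755 of the 21998 barcodes that passed the depth, gene and mitochondrial limits, 925 of 11152 under DMSO and 830 of 10846 under STK. No member barcode occurred in both libraries, although 203 of the deposited barcodes did. The members were chosen by the measured UMI counts of these genes, so levels of these genes describe the gate and are not findings.

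C1q is the recognition part of the classical complement pathway, and in mice it is made mainly by macrophages, which use it to tag dying cells and immune complexes for uptake. Tumour macrophages arise both from tissue-resident cells, which in the liver are Kupffer cells, and from Ly6c2-bearing blood monocytes that switch on C1q, MHC class II and lipid-handling genes as they mature. Spp1, encoding osteopontin, and Arg1, encoding arginase, mark macrophage states often linked to hypoxia and tissue repair.

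The samples were hepatocellular carcinomas from mice of the genotype labelled MYC-ON, dosed by gavage with DMSO, the solvent control, or with STK, an agent the labels do not describe further. The series title names SOAT1, which esterifies cholesterol, and the receptor GPR132. Each group was 1 droplet library (10x 5′ chemistry) of live cells sorted for CD45, the pan-leukocyte surface protein, and both libraries carry the same batch label. The labels give neither the number nor the age or sex of the animals. Cells of 1 library are not replicates, so no test was made: the text gives both values, and 95% exact intervals that cover counting error only. Summed over members, DMSO gave 5707374 UMIs and STK gave 6837938, and the median member held 5878 and 7794 UMIs from 2061 and 2376 genes. Sex also differed between the libraries: by Xist and 4 Y-linked genes, the female share of sexed members was 11.0% under DMSO and 75.9% under STK. Treatment, animal and sex therefore cannot be told apart between whole libraries, and ratios among female cells (48 DMSO and 394 STK members) and among male cells (390 and 125) stand beside the results they touch.

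The marker genes bore out a macrophage population. Levels are given as CPM, the UMIs of a gene summed over the members of a library per 1000000 of all their UMIs. Of the 11 macrophage markers checked, the 8 that the gate did not use were all above 50 CPM in both libraries, and those 8 summed to 4082 CPM in DMSO and 4616 in STK, against 1903 and 2230 in Ly6c2 monocytes and 224 and 288 in the T cells of the same libraries. By the rule itself, C1qa stood at 2058 and 2523 CPM in DMSO and STK, C1qb at 3789 and 3817 CPM, and C1qc at 2133 and 2435 CPM. Ms4a7, a membrane protein of mature macrophages that the gate did not use, stood at 736 and 802 CPM, and Vcam1, an adhesion molecule found on tissue macrophages and endothelium, at 549 and 841 CPM. Spp1 was at 9.64 and 9.21 CPM and Arg1 at 3.68 and 2.05 CPM within the gate. With every cell thinned to 1000 UMIs, which left out 48 DMSO and 20 STK members, Spp1 was seen in 1.03% and 1.23% of members and in 1.15% and 1.34% of T cells. Unthinned, the Spp1 shares were 5.95% and 7.59% of members and 3.84% and 4.19% of T cells. Ms4a7 was seen in 44.9% and 45.2% of thinned members, against 1.54% and 1.34% of T cells (unthinned, 78.6% and 80.0% against 3.95% and 4.06%).

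Markers of other cell types were not absent, and some lay above their level over all kept cells. There, Kupffer-cell markers summed to 86.8 CPM in DMSO and 133 in STK, and non-classical monocyte markers to 118 and 104. Type 1 dendritic cell markers summed there to 77.1 and 109 CPM and classical monocyte markers to 1680 and 1763. The other lists named here lay below that level in both libraries. In members, classical monocyte markers summed to 1755 and 1616 CPM, against 7039 and 7124 CPM in Ly6c2 monocytes, a gate with at least 2 Ly6c2 and 2 Lyz2 UMIs, 1 of Csf1r or Ccr2, fewer than 5 of C1q and none of Cd3, Siglech, Cd79a or Ncr1. The 7 Kupffer-cell markers summed to 490 and 504 CPM, of which Cd5l gave 255 and 255 CPM, while Clec4f had 0 UMIs in DMSO and 1 in STK. T cell markers summed to 51.0 and 43.1 CPM, with Cd3d, Cd3e and Cd3g at 0 by the rule, NK cell markers to 121 and 151 CPM, and B or plasma cell markers to 32.8 and 29.4 CPM. Neutrophil markers summed to 169 and 96.1 CPM, plasmacytoid dendritic cell markers to 79.5 and 169 CPM, and markers of type 1, type 2 and migratory dendritic cells to 138 and 112, 138 and 169, and 141 and 103 CPM. Non-classical monocyte markers gave 168 and 137 CPM, endothelial markers 51.9 and 58.2 CPM, and hepatocyte or tumour-cell markers 1033 and 996 CPM. Fibroblast, erythroid and mast-cell markers each stayed below 3 CPM. At least 2 UMIs over genes of other lineages were held by 11.9% of DMSO and 11.8% of STK members.

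**Figure D1:**
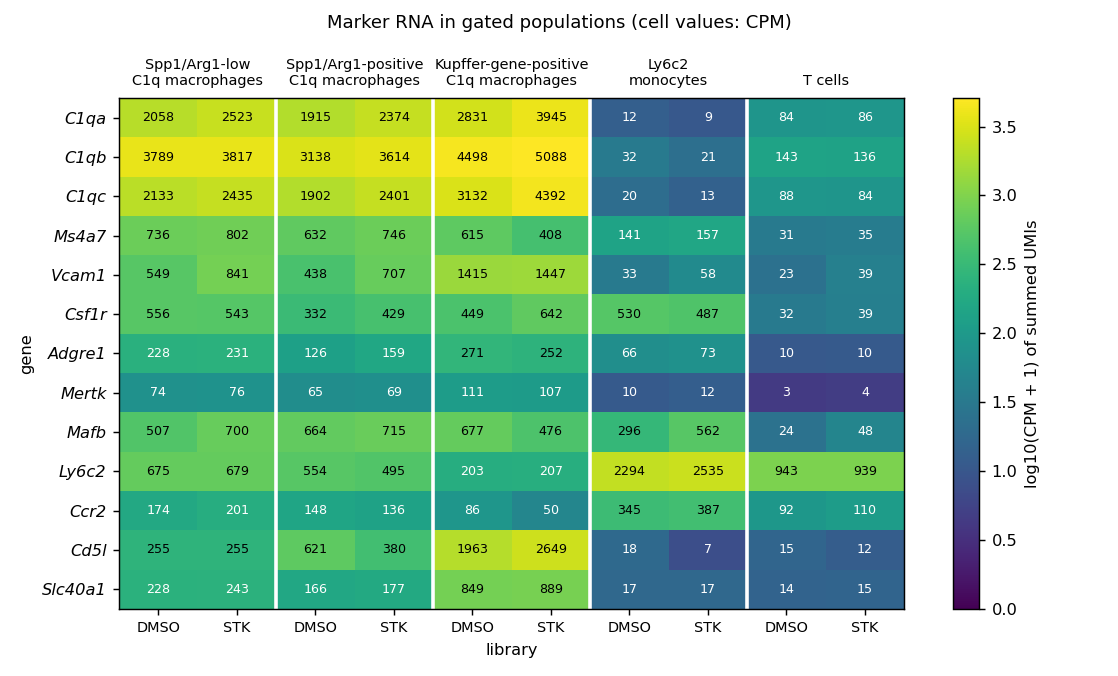
Levels of 13 marker genes (rows, CPM of summed UMIs, colour as log10 of CPM + 1) in 5 gated populations of each library (columns). C1qa, C1qb, C1qc, Cd5l and Ly6c2 helped to set the gates, so their rows describe the choice. Among the other genes, Ms4a7 lies at 736 and 802 CPM and Mertk at 74.1 and 76.5 CPM in the Spp1-low and Arg1-low macrophages, and Mertk at 10.1 and 12 CPM in Ly6c2 monocytes.

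No Spp1 or Arg1 UMI was seen in 849 DMSO and 753 STK members, 1 UMI was seen in 76 and 77, and just outside the limit 14 and 33 cells held 2 UMIs and 7 and 15 held 3. At the C1q limit, 49 DMSO and 25 STK members held exactly 5 UMIs, and 63 and 22 otherwise similar cells held 4. None of the 5 Kupffer-cell genes was detected in 606 and 609 members, 1 was detected in 319 and 221, and 13 and 27 cells with 2 lay just outside. Vcam1 was higher with 1 or 2 of these genes than with none, at 448 and 516 CPM with none, 746 and 1727 CPM with 1 and 1652 and 1679 CPM with 2 of the genes, in DMSO and STK respectively.

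Among all kept cells the population was about as large in both libraries, and among C1q macrophages it was a smaller share under STK. Members made up 8.29% of kept cells in DMSO (interval 7.79 to 8.82) and 7.65% in STK (7.16 to 8.17), a ratio of 0.923 (0.843 to 1.01). Within one sex the order differed: among female cells the share was 4.68% (48 of 1025) and 8.54% (394 of 4613), and among male cells 8.79% (390 of 4439) and 7.71% (125 of 1621). Of the C1q macrophages that met every other condition, 95.3% were Spp1-low and Arg1-low in DMSO (93.7 to 96.5; 925 of 971) and 88.6% in STK (86.4 to 90.5; 830 of 937). That share was 98.0% and 88.9% among female and 95.4% and 83.3% among male cells. STK cells were deeper and the limit was a fixed 1 UMI. Over all cells the ratio of the shares was 0.930 (0.905 to 0.955), and with cells of 2000 to 10000 UMIs alone it was 0.957. In sorted cells a share says nothing about absolute numbers.

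Compared between the libraries, members of the STK library held more RNA of inflammatory cytokine and angiogenic genes, and much less RNA of the inducible Hsp70 genes. A gene was counted as measured with at least 50 UMIs in the library where it was higher, and as higher or lower from a 1.5-fold ratio of CPM, a rule of size and not a test. By this rule 8248 genes were measured, of which 292 (3.54%) were higher and 466 (5.65%) lower in STK, with a median log2 ratio of -0.04. Counts for gene lists below are to be read against these shares.

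The inflammatory list, cytokines and their feedback regulators, had 8 of 12 measured genes higher in STK, none lower, and a median log2 ratio of 0.78 (1.11 in female and 0.71 in male cells). Nlrp3, the sensor of the inflammasome that releases IL-1, stood at 31.5 CPM in DMSO and 119.8 in STK, a ratio of 3.8 (3.23 to 4.49). Il1a, encoding the alarmin IL-1 alpha, stood at 28.4 CPM in DMSO and 78.1 in STK, a ratio of 2.75. Tnf gave 61 CPM in DMSO and 125 in STK, and the neutrophil-attracting chemokine Cxcl2 gave 703 CPM in DMSO and 1319 in STK. Il1b was among the most abundant of these genes, at 1928 CPM in DMSO and 2959 in STK (1.53-fold), and its antagonist Il1rn stood at 142 CPM in DMSO and 223 in STK. For these 6 genes the STK library was higher in female and in male members alike. The ratios ran from 1.79 (Il1rn) to 7.0 (Tnf) among female cells and from 1.31 (Il1b) to 3.12 (Nlrp3) among male cells. Few female DMSO UMIs lay behind some of them: 6 for Tnf (interval 3.19 to 19.2), 10 for Il1a and 18 for Nlrp3. Cxcl1, another neutrophil-attracting chemokine, had the highest ratio of all named genes, 7.07 (9.99 and 70.6 CPM), but only 16 DMSO and 59 STK cells held it, and 5 cells gave 50.9% of the STK UMIs. At a depth of 1000 UMIs, Nlrp3 was seen in 3.31% of DMSO (interval 2.23 to 4.71) and 9.63% of STK members (7.69 to 11.9), against 0.394% and 0.767% of T cells.

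Angiogenic and matrix genes were higher in 7 of 12 measured cases and lower in none, with a median log2 ratio of 0.91. Vegfa, the main vascular growth factor, stood at 16.5 CPM in DMSO and 72.1 in STK, a ratio of 4.38 (3.5 to 5.52), and was seen in 63 of 925 and 235 of 830 members. Its ratio was 3.17 among male cells, and among female cells 13.7 (3.77 to 114) from only 2 DMSO UMIs. Thbs1, the matrix protein thrombospondin-1, stood at 198 CPM in DMSO and 488 in STK (3.64 among female and 1.46 among male cells). The elastase Mmp12 stood at 47.8 CPM in DMSO and 133 in STK. Its ratio was 3.45 among male cells but 0.772 (0.565 to 1.08) among female cells, where the interval included equality. Cd14, the co-receptor for bacterial lipopolysaccharide, stood at 419.6 CPM in DMSO and 1043 in STK (2.49-fold, 2.37 to 2.61; 2.74 among female and 2.21 among male cells), and at 1000 UMIs it was seen in 23.3% and 45.7% of members against 1.5% and 2.79% of T cells. Dusp5, a nuclear phosphatase that ERK signalling induces and that turns ERK off, stood at 69.6 CPM in DMSO and 201 in STK (2.75 among female and 3.08 among male cells). Slc25a33, a mitochondrial pyrimidine nucleotide carrier, stood at 21.4 CPM in DMSO and 77.9 in STK, and Dgat1, which makes triglycerides, at 19.8 CPM in DMSO and 57.9 in STK.

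Gpr132, the receptor named in the series title (chr12:112850873-112868228, minus strand, GRCm38), stood at 54.1 CPM in DMSO and 112 in STK, a ratio of 2.08 (1.82 to 2.38; 3.43 among female and 1.79 among male cells). At 1000 UMIs it was seen in 5.93% of DMSO and 11.2% of STK members, below the 8.66% and 20.9% of T cells in the same libraries. T cells are no background for Gpr132, since they held it at 83.1 and 186 CPM. Soat1, the other gene of the title, stood at 106 CPM in DMSO and 118 in STK and was near equal, with a ratio of 1.11 (0.998 to 1.23; 1.7 among female and 1.01 among male cells). The list of oxysterol enzymes and receptors had 2 of 9 genes higher, Gpr132 and the 25-hydroxylase Ch25h (5.61 CPM in DMSO and 10.2 in STK), and none lower, and the cholesterol synthesis list 1 of 19 higher and none lower, with medians of 0.18 and -0.09. Targets of LXR, the nuclear oxysterol receptor, and sterol efflux genes gave 0 higher and 1 lower of 12, with a median of -0.04. The one lower gene was the apolipoprotein Apoc1 (69.2 CPM in DMSO and 38.5 in STK), while the sterol exporter Abca1 stood at 117 CPM in DMSO and 162 in STK and Apoe at 5559 CPM in DMSO and 7255 in STK.

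Lipid-associated macrophage genes, a set seen in macrophages loaded with lipid, were higher in 4 of 15 cases and lower in none (median log2 ratio 0.38). The lipid-sensing receptor Trem2 stood at 45.9 CPM in DMSO and 95.2 in STK (1.45 among female and 2.37 among male cells), and the fatty acid transporter Cd36 at 38 CPM in DMSO and 60.1 in STK (3.04 among female and 1.91 among male cells). Gpnmb, a lysosomal membrane glycoprotein, stood at 73.9 CPM in DMSO and 121 in STK. Its ratio was 10.9 (4.23 to 40.2) among female cells, from only 4 DMSO UMIs, and 0.346 among male cells, so the sexes pointed opposite ways. The fatty acid carrier Fabp4 stood at 62.9 CPM in DMSO and 113 in STK, with 2.67 among female and 0.995 among male cells. Lysosomal genes gave none lower and 2 higher of 18, among the latter Gla, encoding alpha-galactosidase A, at 53.1 and 81.9 CPM, with a list median of 0.21.

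By the median over all members, the heat shock chaperones were the list furthest below equality, close to the interferon-gamma targets (-0.43 and -0.41). Among male cells they were also lowest (-0.71), but among female cells (-0.31) glycolysis and proliferation genes lay lower (-0.48 and -0.40). Hspa1a, an inducible Hsp70 gene, stood at 886 CPM in DMSO and 68.1 in STK, 13-fold lower in STK, and its near-identical neighbour Hspa1b stood at 724 CPM in DMSO and 38.8 in STK. They lie at chr17:34969190-34972156 and chr17:34956436-34959238 on the minus strand (GRCm38, GENCODE), and their coding sequences are so alike that reads may have been assigned to either. They were lower in STK in both sexes, with Hspa1a ratios of 0.165 among female and 0.019 among male cells. At 1000 UMIs, Hspa1a was seen in 43.0% of DMSO and 3.83% of STK members, and in 12.2% and 0.904% of T cells. The co-chaperone Dnajb1 stood at 131 CPM in DMSO and 60.5 in STK, and the Hsp110 gene Hsph1 at 123 CPM in DMSO and 67.3 in STK. Among male cells their ratios were 0.295 and 0.346. Among female cells they were 1.01 (0.664 to 1.61) and 0.921 (0.622 to 1.41), from only 24 and 28 DMSO UMIs, so a female difference was not settled. In all, 6 of 13 genes were lower and none higher, with a median log2 ratio of -0.43.

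Immediate-early genes, which cells switch on within minutes of a stimulus, lay on both sides of equality. Of 20 measured, 6 were higher and 5 lower, with a median log2 ratio of -0.07, and among female cells 6 were higher and 0 lower. The zinc-finger factor Egr1 stood at 59.9 CPM in DMSO and 198 in STK (3.01 among female and 2.96 among male cells), the orphan receptor Nr4a2 at 27.3 CPM in DMSO and 65.8 in STK, and Fosb at 159 CPM in DMSO and 317 in STK, all higher in STK. Jun stood at 1102 CPM in DMSO and 524 in STK, Fos at 3783 CPM in DMSO and 2126 in STK, Atf3 at 1425 CPM in DMSO and 804 in STK and the mRNA-decay factor Zfp36 at 3302 CPM in DMSO and 1887 in STK, all lower in STK. For these 4 lower genes the ratio among male cells ran from 0.323 (Jun) to 0.521 (Fos), while among female cells it ran from 0.744 (Jun) to 1.16 (Atf3). The stress gene Ddit4, an mTOR inhibitor, stood at 191 CPM in DMSO and 66.7 in STK and Txnip, a thioredoxin-binding brake on glucose uptake, at 187 CPM in DMSO and 70.3 in STK, with Txnip ratios of 0.413 among female and 0.373 among male cells.

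Interferon-gamma targets gave 5 lower of 13 and none higher, with a median log2 ratio of -0.41, but 0.28 among female cells and -0.26 among male cells. The chemokine Cxcl10 stood at 578 CPM in DMSO and 379.8 in STK, the guanylate-binding protein Gbp4 at 56.4 CPM in DMSO and 29.1 in STK (1.32 among female and 0.609 among male cells), and the transcription factor Irf1 at 153 CPM in DMSO and 102 in STK. Type I interferon genes gave 4 lower of 20 and none higher (median -0.23, -0.21 female, -0.18 male). Ifit2, which restrains translation of viral RNA, stood at 224 CPM in DMSO and 129 in STK, Rsad2, encoding the antiviral enzyme viperin, at 171 CPM in DMSO and 112 in STK, and Stat2, a subunit of the interferon-activated factor, at 82.2 CPM in DMSO and 45.6 in STK. Slfn4, an interferon-inducible schlafen gene of myeloid cells, stood at 51.5 CPM in DMSO and 19.6 in STK.

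Antigen presentation genes were near equal over whole libraries. MHC class II genes gave 1 higher of 12 and none lower, with a median log2 ratio of 0.13, but 1.45 among female and 0.34 among male cells. Cd74, the invariant chain that escorts MHC class II, stood at 21881 CPM in DMSO and 27429 in STK (2.99 among female and 1.42 among male cells), and H2-Aa at 7455 CPM in DMSO and 10489 in STK (3.28 among female and 1.53 among male cells). The female values rest on 48 DMSO cells, and only 3 of the female cells of that library fell in the upper MHC class II tercile described below. MHC class I genes gave no gene higher or lower of 13, with a median of 0.08 (H2-D1 3162 and 4223 CPM, H2-K1 2197 and 2702 CPM).

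Genes that define mature macrophages were mostly within 1.5-fold of equal. The macrophage identity list gave 2 higher of 12 (Cd14 and Vcam1) and none lower (median 0.14). Vcam1 was 1.53-fold higher, with 1.68 among female and 1.58 among male cells. In members without a Kupffer-cell gene it stood at 448 CPM in DMSO and 516 in STK, and in members with 1 such gene at 746 and 1727 CPM. The resident-type list gave 1 higher of 10 (0.11), the monocyte list 0 higher and 1 lower of 7 (-0.18), and complement genes other than C1q 2 higher of 9 (0.27), with C5ar1, the receptor of the complement fragment C5a, at 173 CPM in DMSO and 271 in STK. Phagocytic and Fc receptors gave 2 higher of 15 (0.17), checkpoint and suppressive genes 2 higher of 15 (0.04), and glycolysis and hypoxia genes 1 lower of 21 (0.04), that gene being Ddit4. No proliferation gene of 16 was past 1.5-fold (0.08). Among macrophage transcription factors 2 were higher and 1 lower of 18 (-0.15): Id3 stood at 94.1 CPM in DMSO and 176 in STK, Bhlhe40 at 73.1 CPM in DMSO and 119 in STK and Maf at 244 CPM in DMSO and 144 in STK. Chemokines and their receptors gave 2 higher and 3 lower of 19 (-0.07). Ccl3, which attracts lymphocytes and monocytes, stood at 727 CPM in DMSO and 307 in STK (0.741 among female and 0.32 among male cells), and the fractalkine receptor Cx3cr1 at 50.5 CPM in DMSO and 82.8 in STK.

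Several of the genes furthest from equal came from a handful of cells. Retnla, a marker of alternatively activated macrophages, stood at 102 CPM in DMSO and 1.32 in STK, and all of its 585 DMSO UMIs came from 3 cells. Klk1, which also stands in the plasmacytoid dendritic cell marker list, stood at 18.6 CPM in DMSO and 71.5 in STK in 12 and 28 cells. Fscn1, an actin bundler of mature dendritic cells, stood at 65.2 CPM in DMSO and 17.7 in STK in 19 and 15 cells. S100a9, a neutrophil and monocyte alarmin, stood at 67.6 CPM in DMSO and 27.3 in STK in 24 and 14 cells. The epithelial keratin Krt8 stood at 102 CPM in DMSO and 34.1 in STK, with 5 cells giving 74.1% of its DMSO UMIs. These values describe a few barcodes and not the population.

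**Figure D2:**
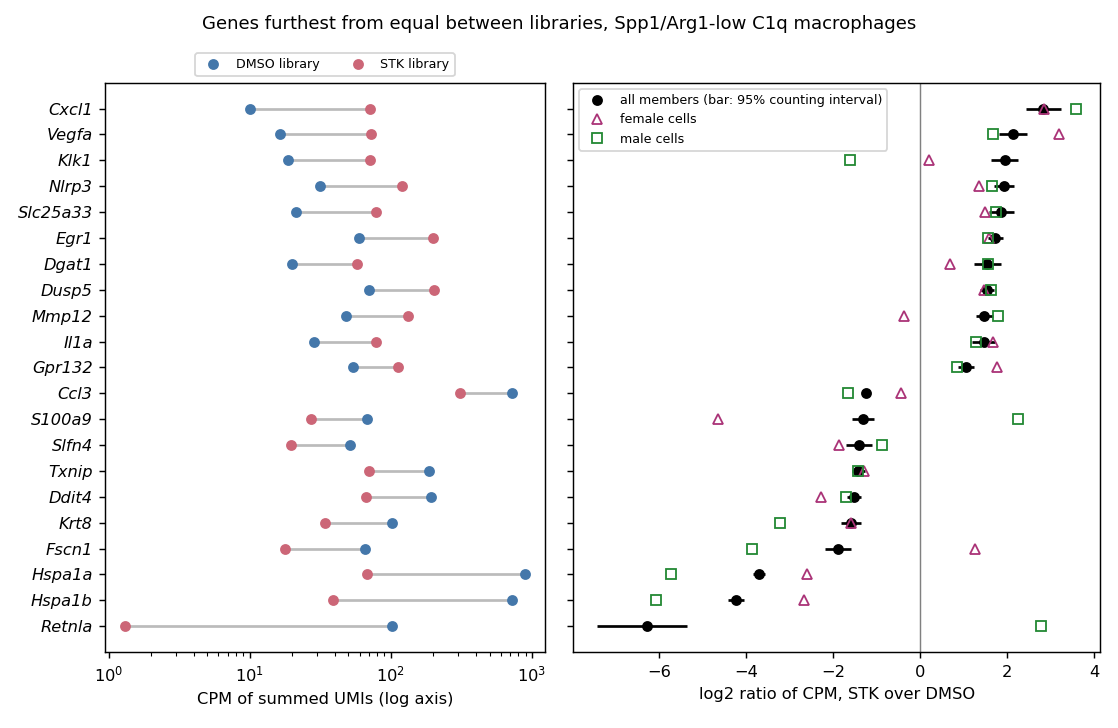
The 20 genes furthest from equal and Gpr132: the left panel plots CPM of summed UMIs in the DMSO and STK libraries (log axis), and the right panel the log2 ratio over all members with its 95% counting interval, and over female and male cells where either library held over 3 UMIs. Sex-specific counts under 3 UMIs were set to 3 (female Cxcl1, Vegfa and Fscn1 and male Retnla in DMSO), so those points lie too low. Vegfa, Nlrp3, Egr1, Dusp5 and Gpr132 lie above equality and Hspa1a, Hspa1b, Ddit4 and Txnip below it in both sexes, whereas Mmp12, Klk1, Fscn1 and S100a9 lie on opposite sides of it in female and male cells. The female interval of Mmp12 (0.565 to 1.08) and the female and male intervals of Klk1 (0.783 to 1.74 and 0.0624 to 1.09) include equality.

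**Figure D3:**
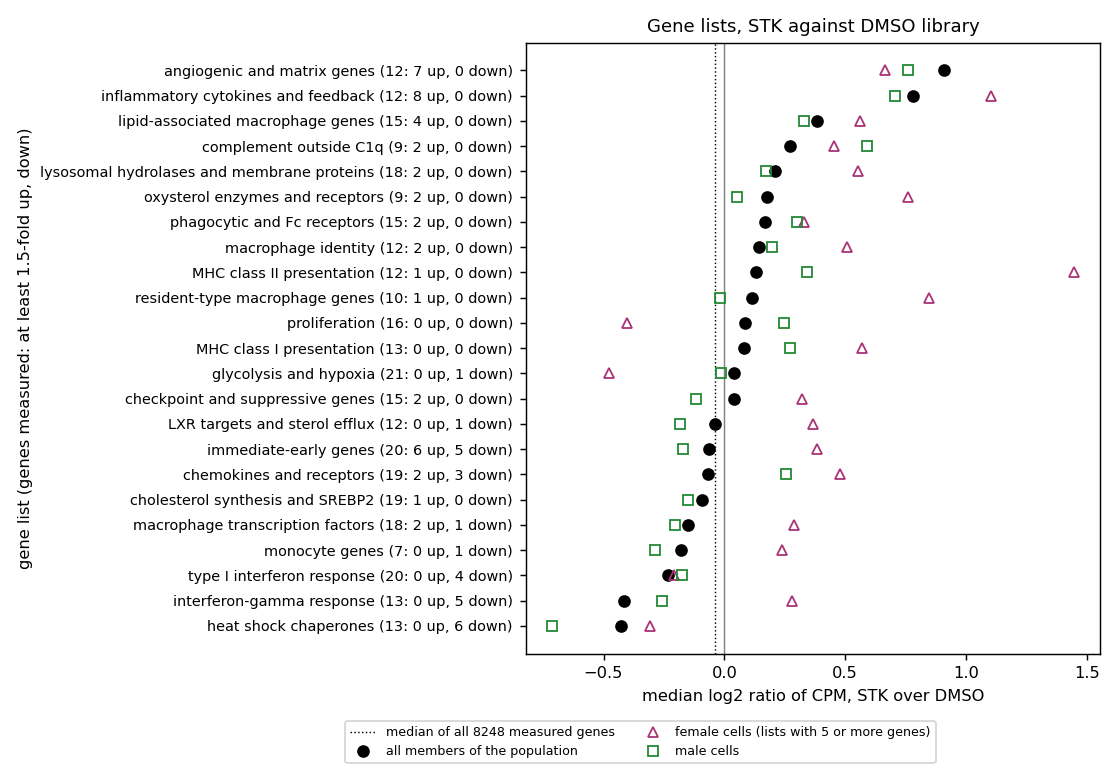
Median log2 ratio of CPM (STK over DMSO) for each of 23 gene lists over all members, female cells and male cells, with the numbers of measured, higher and lower genes beside each name. Over all members, angiogenic and inflammatory lists lie highest (0.91 and 0.78) and heat shock chaperones lowest (-0.43, close to -0.41 for interferon-gamma targets). The MHC class II list differs most between female cells (1.45) and all members (0.13).

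The same ratios were taken in other populations of the same libraries, and for the 4 genes and the list given next they lay on the same side of equality in each. Hspa1a had a STK-to-DMSO ratio of 0.077 in members, 0.0609 in C1q macrophages with Spp1 or Arg1, 0.0373 in Ly6c2 monocytes and 0.0863 in T cells. Vegfa had ratios of 4.38, 4.07, 3.38 and 3.48, Nlrp3 of 3.8, 2.38, 2.5 and 2.86, and Txnip of 0.375, 0.346, 0.333 and 0.48, in the same order. The inflammatory list had 8 of 12 genes higher in Ly6c2 monocytes and 6 of 12 in T cells, and 3 higher and 1 lower of 9 in the Spp1 or Arg1 positive cells, with medians of 0.74, 0.76 and 0.48, next to 0.78 in members. Over all measured genes, 4.26% were higher and 5.95% lower in Ly6c2 monocytes, 5.27% and 3.63% in T cells, and 14.8% and 4.52% in the Spp1 or Arg1 positive cells. The interferon-gamma list, with a median of -0.41 and 5 of 13 genes lower in members, gave 0 lower and 2 higher of 8 (0.23) in the Spp1 or Arg1 positive cells. The T cells held Nlrp3 at 4.7 and 13.4 CPM and C1qb at 143 and 136 CPM. The part of free RNA in these ratios was not tested. Egr1 and Mmp12 differed in size or direction between populations, with ratios of 3.3 and 2.78 in members and 1.51 and 0.596 in Ly6c2 monocytes. The differences of these ratios between populations were not tested.

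Within each library, members were then set against the C1q macrophages with at least 2 Spp1 or Arg1 UMIs (46 DMSO and 107 STK cells), which met every other condition. Members held less RNA of several lipid-associated, glycolysis and inflammatory genes. Of 3844 genes measured in both libraries, 251 (6.53%) were at least 1.5-fold higher and 59 (1.53%) lower in members in both. The median log2 ratio of all these genes was 0.26 in DMSO and 0.14 in STK. The positive cells held 397449 and 1166579 UMIs in all, far fewer than members, so a gene reached 50 UMIs more easily when it was high in members, and the balance of the 2 counts is not a result. Lipid-associated genes were lower in members in 7 of 12 cases and higher in none. Trem2 stood at 45.9 CPM in members against 179 in the Spp1 or Arg1 positive cells under DMSO, and 95.2 against 327 under STK, and Gpnmb at 73.9 CPM in members against 309 in positive cells under DMSO, and 121 against 614 under STK. Glycolysis and hypoxia genes were lower in 4 of 11, among them lactate dehydrogenase Ldha (543 CPM in members against 1097 in positive cells under DMSO, and 635 against 960.1 under STK). Inflammatory genes were lower in 3 of 7, namely Cxcl1, Il1rn and Cxcl2 (for Cxcl2, 703 CPM in members against 1550 in positive cells under DMSO, and 1319 against 2375 under STK). On the higher side in members, Ccr7, from the migratory dendritic cell marker list, lay furthest. It stood at 51.9 CPM in members against 2.52 in positive cells under DMSO, and 61.9 against 0 under STK. The positive cells held 1 Ccr7 UMI under DMSO and 0 under STK. Among members thinned to 2000 UMIs, Ccr7 was seen in only 2.104% of DMSO and 3.003% of STK cells. Its level in members thus came from few cells. The non-classical monocyte marker Treml4 was also among the 8 furthest above. So were the T cell chemokine Ccl5 (968 CPM in members against 347 in positive cells under DMSO, and 727 against 284 under STK) and the inhibitory lectin Siglece (62.6 CPM in members against 17.6 in positive cells under DMSO, and 66.1 against 18.9 under STK). The DMSO positive cells held 7 Siglece UMIs. Of 12 macrophage identity genes, 0 lay past 1.5-fold in the same direction in both libraries, although Csf1r, the receptor for the macrophage growth factor, did so under DMSO (556 CPM in members against 332 in positive cells under DMSO, and 543 against 429 under STK). Hepatocyte or tumour-cell markers moved with this contrast, at 1033 and 996 CPM in members and 3291 and 2036 CPM in positive cells, and the liver-secreted genes Serpina1e, Serpina1b and Apom were among the 8 furthest below. Non-classical monocyte markers were at 168 and 137 CPM in members and 42.8 and 59.1 CPM in positive cells. Migratory dendritic cell markers were at 141 and 103 CPM and 27.7 and 15.4 CPM, and plasmacytoid ones at 79.5 and 169 CPM and 5.03 and 44.6 CPM. NK cell markers lay the other way (121 and 151 CPM in members, 304 and 279 in positive cells), and so did Kupffer-cell markers (490 and 504, 818 and 561). The part of these cell types in the contrast was not tested. Positive cells were also deeper, with medians of 6802 and 10200 UMIs, next to 5878 and 7794 in members.

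Against cells with at least 2 of the 5 Kupffer-cell genes (24 DMSO and 71 STK cells), members held more RNA of several monocyte and MHC class II genes. Of 2433 genes, 251 (10.3%) were higher and 26 (1.07%) lower in members in both libraries, with a median log2 ratio over all genes of 0.29 and 0.25. The 24 DMSO cells held 162508 UMIs, so here too genes reached the minimum mainly through members, and the balance of the counts is not a result. Monocyte genes were higher in members in 5 of 6 cases and MHC class II genes in 6 of 10. These list counts passed through the same minimum and carry the same limit (for Chil3, 730 UMIs in members and 3 in Kupffer-gene positive cells under DMSO). Ly6c2 stood at 675 CPM in members against 203 in Kupffer-gene positive cells under DMSO, and 679 against 207 under STK, and Cd74 at 21881 CPM in members against 7292 in Kupffer-gene positive cells under DMSO, and 27429 against 10936 under STK. The resident-type list had 1 higher and 1 lower of 5, with medians of 0.27 and -0.33. Among the 8 genes furthest below in members, Slc40a1, the iron exporter, stood at 228 CPM in members against 849 in Kupffer-gene positive cells under DMSO, and 243 against 889 under STK, and the lectin ficolin-A gene Fcna at 104 CPM in members against 517 in Kupffer-gene positive cells under DMSO, and 90.4 against 742 under STK. Id3, a factor that mouse Kupffer cells need, stood at 94.1 CPM in members against 665 in Kupffer-gene positive cells under DMSO, and 176 against 991 under STK. Endothelial markers moved with this contrast in the DMSO library, at 51.9 CPM in members and 923 CPM in Kupffer-gene positive cells (58.2 and 173 CPM in STK), and so did NK cell markers there (121 and 782 CPM). Plasmacytoid dendritic cell markers were at 79.5 CPM in members and 302 in Kupffer-gene positive cells under DMSO, and 169 and 540.1 under STK. Hepatocyte or tumour-cell markers were at 1033 and 542 CPM under DMSO and 996 and 6934 under STK. The part of these cell types was not tested.

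Against Ly6c2 monocytes (1113 DMSO and 722 STK cells), members held more RNA of resident-type, lipid-handling, uptake and lysosomal genes. Both gates used C1q counts and the monocyte gate used Ly6c2, so these genes describe the choice. Of 7923 genes, 550 (6.94%) were higher and 570 (7.19%) lower in both libraries. Resident-type genes were higher in members in 8 of 9 cases, lipid-associated genes in 9 of 15, phagocytic and Fc receptors in 9 of 15, lysosomal genes in 8 of 18 and MHC class II genes in 5 of 12. Vcam1 stood at 549 CPM in members against 33.1 in monocytes under DMSO, and 841 against 58.1 under STK, the growth factor Igf1 at 162 CPM in members against 16.5 in monocytes under DMSO, and 171 against 19.2 under STK, and Mertk, a receptor for dying cells, at 74.1 CPM in members against 10.1 in monocytes under DMSO, and 76.5 against 12 under STK. All 8 monocyte genes were lower, and so were 8 of 20 cholesterol synthesis genes. The matrix proteoglycan Vcan stood at 6.13 CPM in members against 92 in monocytes under DMSO, and 5.41 against 81.7 under STK, and fibronectin, Fn1, at 18.9 CPM in members against 278 in monocytes under DMSO, and 16.5 against 286 under STK. Type I interferon genes were higher in none and lower in 2 of 20, with a median log2 ratio of -0.27 in both libraries. Markers of other cell types moved with this contrast. Neutrophil markers were at 169 CPM in members and 612 in monocytes under DMSO, and 96.1 and 1935 under STK, and the neutrophil genes Ngp and Cd177 were among the 8 furthest below. Plasmacytoid dendritic cell markers, of which Siglech was barred from the monocyte gate, were at 79.5 and 1.92 CPM, and 169 and 3.4 CPM. NK cell markers were at 121 and 14.6 CPM, and 151 and 12 CPM, and hepatocyte or tumour-cell markers at 1033 and 1777 CPM, and 996 and 2435 CPM. Their part was not tested.

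The 10 genes that varied most among members were Cd74, Apoe, AY036118, the ferritin gene Fth1, Ccl4, Ccl5, Cxcl10, Cxcl2, Ccl8 and Fabp5. With each cell thinned to 2000 UMIs (808 DMSO and 766 STK members), the variance-to-mean ratio over cells was 23.7 and 23.7 for Cd74, 19.9 and 27.4 for Apoe, 19.7 and 20.2 for AY036118, 19.3 and 19.2 for Fth1, 19.9 and 18.9 for the chemokine Ccl4, 26.8 and 18.5 for Ccl5, 21.4 and 13.6 for Cxcl10, 13.5 and 14.0 for Cxcl2, 11.2 and 14.0 for Ccl8 and 11.1 and 13.8 for the fatty acid carrier Fabp5. A ratio of 1 is what sampling alone gives. Ccl5 was found in 29.2% and 25.5% of these cells and Ccl8 in 5.82% and 6.14%, so part of the spread lay in few cells.

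Members also spanned a range from monocyte-like to resident-like RNA. They were ranked within each library by the share of their UMIs from 8 monocyte genes (Ly6c2, Ccr2, Plac8, Chil3, Vcan, Ms4a4c and others) and cut into terciles of 308 DMSO and 276 STK cells. Over all members, Plac8 (734 CPM in DMSO and 580 in STK), Ly6c2 (675 and 679) and Ms4a4c (551 and 486) were among the most abundant of them. The ranking genes made up a median of 0 and 0.68 per 10000 UMIs in the lower tercile and 42.4 and 42.5 in the upper one. Of 4774 genes, 391 (8.19%) were higher and 383 (8.02%) lower in the upper tercile in both libraries. All 20 type I interferon genes were higher in the upper tercile, with a median log2 ratio of 1.43 in DMSO and 1.58 in STK, beside -0.03 and -0.05 over all measured genes. Interferon-gamma targets were higher in 11 of 13 (0.96 and 1.35), and MHC class I genes in 6 of 13 (0.66 and 0.70). How far the choice of ranking genes set these counts was not tested. Between members and Ly6c2 monocytes, the type I interferon list had a median log2 ratio of -0.27 in both libraries, with 2 of 20 genes lower in members. Isg15, a ubiquitin-like protein that interferon induces, stood at 404 CPM in the lower and 1770 in the upper tercile under DMSO, and 349 and 1741 under STK. Ifit3, an antiviral RNA-sensing partner, stood at 96.5 CPM in the lower and 257 in the upper tercile under DMSO, and 46.5 and 218 under STK, and Rsad2 at 65.8 CPM in the lower and 259 in the upper tercile under DMSO, and 55.1 and 165 under STK. Cxcl10, which draws T cells through Cxcr3, stood at 369 CPM in the lower and 849 in the upper tercile under DMSO, and 115 and 625 under STK.

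Interferon-responsive genes often carry the interferon-stimulated response element in their promoters. The letters GAAANNGAAA, or TTTCNNTTTC for the other strand, were searched in the 250 bases before the start of each gene (RefSeq, GRCm38.p6), overlapping matches included. They occurred in 1079 of 27025 promoters (3.99%), in 10 of the 16 type I interferon genes with a promoter in the table and in 8 of 11 interferon-gamma targets. None was found in 10 heat shock, 18 immediate-early or 10 lipid-associated genes. The promoters of the 4 genes just described are shown because their RNA was higher together along the monocyte range, with the matched letters in capitals and each read 5′ to 3′ towards the gene.
Isg15, chr4:156200819-156201068, minus strand: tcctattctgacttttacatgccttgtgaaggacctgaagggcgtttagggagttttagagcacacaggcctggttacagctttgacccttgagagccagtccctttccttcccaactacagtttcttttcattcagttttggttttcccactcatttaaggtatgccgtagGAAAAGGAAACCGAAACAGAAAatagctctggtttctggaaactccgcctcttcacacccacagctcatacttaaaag
Ifit3, chr19:34583279-34583528, plus strand: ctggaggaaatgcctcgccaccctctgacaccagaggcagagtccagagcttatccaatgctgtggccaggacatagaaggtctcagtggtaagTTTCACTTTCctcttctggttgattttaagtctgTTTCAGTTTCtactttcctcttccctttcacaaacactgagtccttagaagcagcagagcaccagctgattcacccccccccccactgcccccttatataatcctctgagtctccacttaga
Rsad2, chr12:26456453-26456702, minus strand: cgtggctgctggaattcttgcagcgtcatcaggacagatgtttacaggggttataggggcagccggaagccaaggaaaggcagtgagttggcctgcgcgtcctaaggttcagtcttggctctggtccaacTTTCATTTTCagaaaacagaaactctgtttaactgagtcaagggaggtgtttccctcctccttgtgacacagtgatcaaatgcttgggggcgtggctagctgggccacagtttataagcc
Cxcl10, chr5:92348890-92349139, minus strand: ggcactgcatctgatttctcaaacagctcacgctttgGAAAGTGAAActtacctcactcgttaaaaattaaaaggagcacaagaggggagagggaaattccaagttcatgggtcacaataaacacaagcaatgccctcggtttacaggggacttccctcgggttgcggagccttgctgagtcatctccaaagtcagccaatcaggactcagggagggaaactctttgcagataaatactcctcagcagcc
In Isg15 the 3 matches overlap and begin 78, 72 and 66 bases before the start, in Ifit3 they begin 156 and 122 bases before it, in Rsad2 120 and in Cxcl10 213. A match is a description of the letters and shows no binding.

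In the lower tercile, resident-type and lipid-associated genes prevailed. Resident-type genes were lower in the upper tercile in 7 of 8 cases, lipid-associated genes in 10 of 15 and LXR targets in 5 of 11. Slc40a1 stood at 483 CPM in the lower and 74 in the upper tercile under DMSO, and 546 and 59.3 under STK, and lipoprotein lipase, Lpl, at 250.4 CPM in the lower and 49.5 in the upper tercile under DMSO, and 406 and 51 under STK. Mmp12 stood at 109.8 CPM in the lower and 8.17 in the upper tercile under DMSO, and 278 and 13 under STK, Vcam1 at 974 CPM in the lower and 221 in the upper tercile under DMSO, and 1705 and 234 under STK, and Trem2 at 74.2 CPM in the lower and 30.6 in the upper tercile under DMSO, and 173 and 49.6 under STK. Gpr132 was higher in the upper tercile, at 30.8 CPM in the lower and 81.7 in the upper tercile under DMSO, and 56.5 and 158 under STK. Hspa1a was higher there in DMSO and lower in STK (691 CPM in the lower and 1064 in the upper tercile under DMSO, and 109.8 and 56.1 under STK), so its gap between libraries held in both terciles.

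Other cell types moved along this range. Plasmacytoid dendritic cell markers summed to 8.45 CPM in the lower and 202 in the upper tercile in DMSO, and to 15.8 and 396 CPM in STK, and 2 of them, Ly6d and Siglech, were among the 8 genes furthest above. Kupffer-cell markers summed to 1052 and 209 CPM, and to 1188 and 136 CPM, hepatocyte or tumour-cell markers to 1512 and 673 CPM, and to 1119 and 611 CPM, and migratory dendritic cell markers to 338 and 109 CPM, and to 239 and 42.6 CPM. After cells with at least 2 UMIs of other lineages were left out, 19 of the 20 type I interferon genes, 11 lipid-associated and 6 resident-type genes still lay past 1.5-fold in these directions. The DMSO terciles differed in depth, with medians of 4420 and 5855 UMIs, and the STK terciles less (7362 and 7579). Female cells were 19.3% of sexed DMSO members in the lower and 9.03% in the upper tercile, and 73.2% and 76.5% in STK.

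A second ranking, by the share of UMIs from H2-Aa, H2-Ab1, H2-Eb1 and Cd74, put members with less glycolysis RNA at the upper end. Proliferation RNA was also lower there, but 0 proliferation genes were counted as lower once the cells of highest doublet score were removed. Whether those genes had come within 1.5-fold or held too few UMIs to be measured was not tested. Of 4716 genes, 156 (3.31%) were higher and 449 (9.52%) lower in the upper tercile, and the median log2 ratio of all genes was itself -0.15 in DMSO and -0.20 in STK. The lectin Mgl2, from the type 2 dendritic cell marker list, stood at 0 CPM in the lower and 114 in the upper tercile under DMSO, and 5.43 and 181 under STK. Ciita, the master regulator of MHC class II, stood at 15.2 CPM in the lower and 122 in the upper tercile under DMSO, and 19.2 and 83.8 under STK. Chemokines and receptors were higher in the upper tercile in 8 of 18 cases, among them Cxcl16 (157 CPM in the lower and 586 in the upper tercile under DMSO, and 285 and 689 under STK). Type I interferon genes were past 1.5-fold in both libraries in 0 of 19, unlike along the monocyte range. Proliferation genes were lower in 4 of 9 and glycolysis genes in 6 of 17. Ube2c, a mitotic ubiquitin ligase partner, stood at 53.9 CPM in the lower and 6.35 in the upper tercile under DMSO, and 58.7 and 5.56 under STK, and Ldha at 756 CPM in the lower and 420.5 in the upper tercile under DMSO, and 862 and 489.8 under STK. Vegfa and Hspa1a were level between terciles (15.9 CPM in the lower and 16.3 in the upper tercile under DMSO, and 70.0 and 72.3 under STK for Vegfa).

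Depth, other cell types and sex moved with this ranking too. The lower tercile held medians of 3961 and 6259 UMIs and the upper one 6871 and 8058. Hepatocyte or tumour-cell markers summed to 1982 CPM in the lower and 617 in the upper tercile in DMSO (1664 and 731 in STK), and Krt18, Fgg, Serpina1b and Rbp4 were among the 8 genes furthest below. Kupffer-cell markers summed to 1112 and 186 CPM in DMSO and to 1074 and 79.1 in STK, NK cell markers to 191 and 58.1 CPM and to 273 and 43.6, and migratory dendritic cell markers to 296 and 18.6 CPM and to 190 and 68.0. Type 2 dendritic cell markers, Mgl2 among them, summed to 34.9 and 249 CPM in DMSO and to 46.4 and 307 CPM in STK. Female cells were 23.1% of sexed DMSO members in the lower and 2% in the upper tercile, and 82.2% and 69.8% in STK. With the cells of highest doublet score removed (the top 8% of each library), 224 genes instead of 449 were counted as lower, and 0 proliferation genes instead of 4. The part of these cells in the ranking was otherwise not tested.

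**Figure D4:**
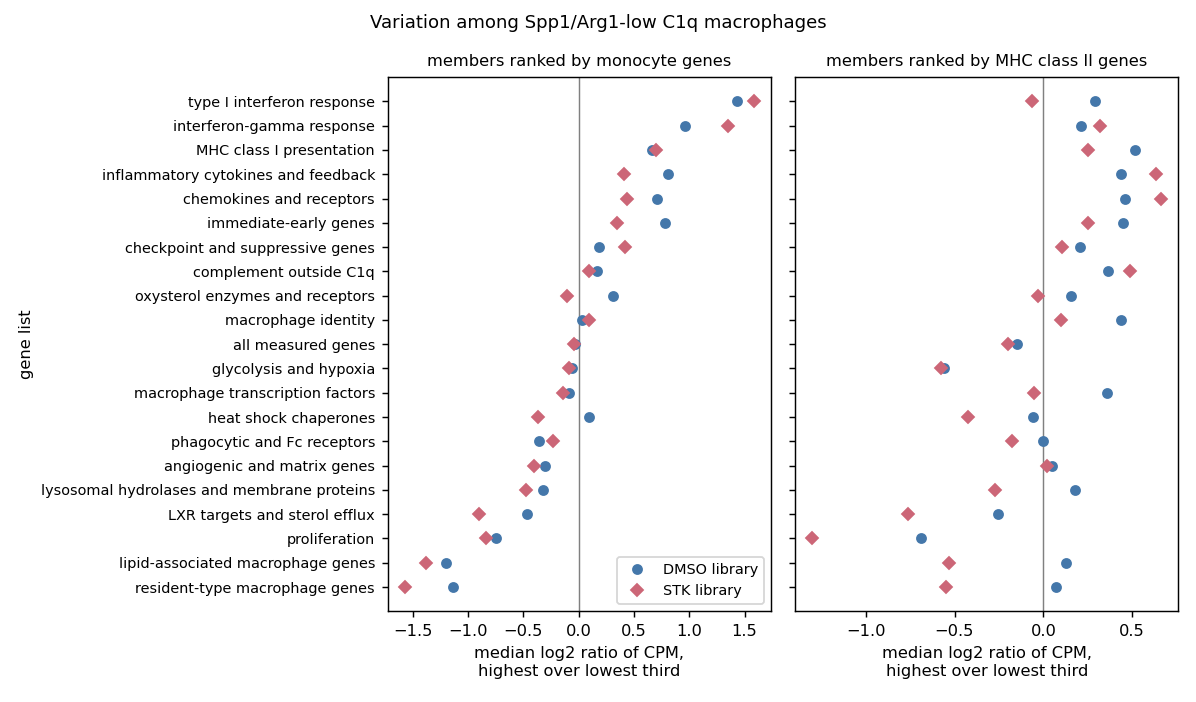
Median log2 ratio of CPM, upper over lower tercile, for the gene lists with at least 5 measured genes in both rankings, the ranking lists left out, when members were ranked by monocyte genes (left) or MHC class II genes (right), in the DMSO (circles) and STK (diamonds) libraries. Along the monocyte range type I interferon genes lie at 1.43 and 1.58 and resident-type genes at -1.13 and -1.57, whereas along the MHC class II range proliferation genes lie lowest, at -0.69 and -1.30. With the cells of highest doublet score removed, which is not shown here, 0 proliferation genes were counted as lower in both libraries. How many of them were still measured was not recorded.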

How the data were processed

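The 2 libraries of CD45+ cells, 1 DMSO and 1 STK, were analysed. The deposited values are raw UMI counts of 32285 genes per barcode, made with Cell Ranger 6.0.2 per the file headers, with the builds GRCm38 and mm10 per the submitters' processing notes; the labels' protocols give the 10x 5′ kit. The deposited libraries hold 79322966 and 81859811 UMIs in 11784 and 11672 barcodes. Counts were summed over the members of a library and divided by their total to give CPM, and ratios have exact conditional binomial 95% intervals. A gene with fewer than 3 UMIs in a library was set to a floor of 3 UMIs per library. Shares have exact Clopper-Pearson intervals. Intervals cover counting error only. Within-sex list medians use genes expected to hold at least 10 UMIs in that sex in each library.

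Sex was called per cell from Xist against Ddx3y, Eif2s3y, Kdm5d and Uty. Doublets were kept in the main values, and scored with Scrublet (scanpy 1.11.5) for an alternative. Numpy 2.4.6, scipy 1.17.1 and pandas 2.3.3 were used, and the ratio step was tested on simulated data. No column of the files was left unused as belonging to other samples. The members, the 23 gene lists and the 17 marker lists were chosen with earlier results of these data known. Named genes were the 10 highest and 10 lowest ratios, given 50 CPM and 50 UMIs in the higher library (genes of the gate, hepatocyte, erythroid, sex-linked, ribosomal, mitochondrial and antigen-receptor genes and unnamed models apart), the list members furthest from equal, and the 8 furthest genes on each side of each population comparison; the other genes named were chosen after their values were seen. Of the list genes, 2 are not in the table and were not used here. Gene identifiers matched GENCODE.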

Additional observations from a re-analysis of the deposited data

Results flagged for a closer look

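In 4 of the 97 named genes the STK-to-DMSO ratio of members lay at least 1.5-fold on opposite sides of equality in female and in male cells, with both counting intervals excluding 1. The other measured genes were not searched in this way. S100a9 had ratios of 0.0401 among female and 4.78 among male cells. Fscn1 had a ratio of at least 2.38 among female cells, where DMSO held 0 UMIs and the floor of 3 was used, and of 0.0689 among male cells. Gpnmb had a ratio of 10.9 (4.23 to 40.2) among female cells, from 4 DMSO UMIs, and of 0.346 among male cells. Ccl8 had a ratio of 0.665 among male cells, and among female cells 12.8 (3.52 to 107) from 2 DMSO UMIs, or 8.56 with the floor of 3 UMIs. The difference between the sexes was not tested in any of the 4, and the female DMSO values rest on 48 cells. S100a9 came from 24 DMSO and 14 STK cells and Fscn1 from 19 and 15, while Gpnmb was seen in 133 and 148 and Ccl8 in 85 and 104 cells.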

How the results depend on the processing

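No paired analysis was possible because each group is 1 library, and for the same reason no library was left out. Alternatives changed 1 choice at a time: the limits of the gate, depth, doublets, other-lineage cells, scaling, the minimum count and the sex of the cells. The alternatives on the comparisons between populations and on the terciles, and the one leaving out the 5 richest cells per gene, were chosen after seeing the data. The cause of the moves below was not tested. Depth limits genes below the minimum of 50 UMIs, and precision among female cells (48 in DMSO).

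The ratio of the share of kept cells was 0.923, and became 1.03 with no Kupffer-cell gene allowed, 0.759 at 2000 to 10000 UMIs and 1.82 in female cells. The ratio of the share of C1q macrophages was 0.930, and became 0.962 with up to 3 Spp1 and Arg1 UMIs, 0.957 at 2000 to 10000 UMIs and 0.874 in male cells. The genes higher in STK numbered 292, and 940 in female cells and 466 with a minimum of 20 UMIs. The genes lower in STK numbered 466, and 191 in female cells, 931 with a minimum of 20 UMIs and 230 with one of 100. The female counts follow the unequal depth (356303 UMIs in DMSO and 3537246 in STK), since genes reach 50 UMIs mainly through STK. Over the 4372 genes expected to be measurable in both, 583 were higher and 705 lower among female cells.

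Median log2 ratios of lists moved as follows. With doublets removed, monocyte genes gave -0.032. With C1q of at least 3 UMIs, chemokines gave 0.18, and with the gate scaled to depth 0.068. With Spp1 and Arg1 at 0, interferon-gamma targets gave -0.62. With no Kupffer-cell gene, macrophage identity gave 0.041, resident-type genes -0.16, interferon-gamma targets -0.64 and proliferation -0.33. At 2000 to 10000 UMIs, monocyte genes gave -0.0049, chemokines 0.076, lipid-associated genes 0.14, lysosomal genes 0.088 and angiogenic genes 0.57.

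In female cells, macrophage identity gave 0.51, complement 0.45, resident-type 0.85, monocyte genes 0.24, MHC class II 1.45, MHC class I 0.57, inflammatory 1.11, chemokines 0.48, lipid-associated 0.56, lysosomal 0.55, LXR targets 0.37, oxysterol 0.76, phagocytic 0.33, checkpoint 0.32, glycolysis -0.48, heat shock -0.31, immediate-early 0.38, proliferation -0.40 and transcription factors 0.29, and interferon-gamma targets reversed to 0.28. In male cells, complement gave 0.59, MHC class II 0.34, MHC class I 0.27, chemokines 0.26, phagocytic 0.30, checkpoint -0.12, heat shock -0.71 and immediate-early -0.17.

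Along the MHC class II range with doublets removed, 224 genes instead of 449 were counted as lower, 0 proliferation genes instead of 4, and 5 chemokine genes instead of 8 were counted as higher. Genes no longer measured after the removal were not told apart from genes no longer past the fold limit.

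Of the 97 named genes, 49 were past 1.5-fold, and 10 of these 49 reversed their ratio somewhere: Retnla (2.41 with doublets removed, at least 6.86 in male cells, with 0 DMSO UMIs), Krt8 (1.12 with Spp1 and Arg1 at 0), S100a9 (1.08 with the gate scaled, 1.39 as a mean of per-cell CPM, 4.78 in male cells), Mmp12 (0.772 in female cells), Fscn1 (at least 2.38, with 0 DMSO UMIs), Gbp4 (1.32) and Dnajb1 (1.01), all in female cells, and Klk1 (0.327, with 3 STK UMIs), Gpnmb (0.346) and Fabp4 (0.995) in male cells.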
